A study of Mus musculus with 6 samples.

Results

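The Spi1 locus of the mouse, which encodes the transcription factor PU.1 itself, was described through the PU.1 ChIP-seq peaks that were deposited for it. Every peak that overlapped chromosome 2, 90880000 to 91000000, in mouse build mm9 was taken, a window of 120 kb around a start of Spi1 near 90937000 on the plus strand. The window was set by position around the gene, with earlier results of these data known. The 4 libraries held 18, 16, 7 and 14 peaks there, and these merged into 19 regions of the 82810 that the peaks of the whole genome formed. All cells were of the mouse line iBN, whose label gives granulocyte-macrophage progenitor as the cell type. They were kept in medium with GM-CSF, and in both conditions they carried a PU.1-inducible system. For 2 libraries the cells had been induced for 72 hours with doxycycline at 1000 ng/ml, and for 2 libraries they were left uninduced. The authors also deposited 1 merged list per condition. What the inducible construct holds, and whether replicates were separate cultures, the labels do not say. P-values below thus measure only the spread between these libraries, which may be technical. Peak lists offer no marker with which to check the cell type.

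PU.1 is an ETS-family factor that binds purine-rich sites with a GGAA core and is needed for myeloid and B-lymphoid development, where its level helps to set the lineage a progenitor takes. Its gene is controlled by a proximal promoter and by an upstream regulatory element, an enhancer that lies about 14 kb before the start in the mouse. PU.1 is known to bind both elements, which makes the gene part of a positive autoregulatory loop. RUNX1 and C/EBP factors are other known activators that act through the upstream element. Along the chromosome, Rapsn, Psmc3 and Slc39a13 come before Spi1 and Mybpc3 and Madd after it among the protein-coding genes of RefSeq (order taken from assembly GRCm38.p6). No gene positions of mm9 were used here, so distances are counted from the start given above, and the ends, exons and promoters of these genes were not placed. Below, the upstream element means the region that covers the position 14 kb before that start, and the start is only as exact as the position given.

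PU.1 peaks were present in both uninduced libraries at the upstream element, at the start and at 3 other places upstream. In the induced libraries, and in part in uninduced replicate 2, further peaks surrounded them. Uninduced replicate 1 held 7 peaks in the window, uninduced replicate 2 held 14, induced replicate 1 held 18 and induced replicate 2 held 16. Peaks covered 10.0 and 17.5 kb of the window in uninduced replicates 1 and 2, against 27.5 and 21.5 kb in induced replicates 1 and 2. In both measures each induced library lay above each uninduced one, although the uninduced replicates were far apart. The means were 17 ± 1.41 induced and 10.5 ± 4.95 uninduced peaks (SD, n = 2 each, exact two-sided permutation p = 0.333). For covered length they were 24.5 ± 4.26 and 13.8 ± 5.29 kb (n = 2 each, exact two-sided permutation p = 0.333). A p of 0.333 is the lowest possible with 2 libraries on each side, so no comparison of the locus could pass 0.05.

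The induced lists are longer over the whole genome. Relative to the peaks in a list, or to the length under them, the locus did not stand higher in both induced lists. Per Mb under peaks of the list, covered length of the window was 0.346 and 0.343 kb in induced replicates 1 and 2. In uninduced replicates 1 and 2 it was 0.317 and 0.422 kb, a measure that does not count peaks. Peaks of the window made up 2.64 and 2.79 of every 10000 peaks in the induced lists and 2.19 and 3.26 in the uninduced lists. The uninduced values lie on either side of the induced ones, with means of 2.72 ± 0.104 and 2.72 ± 0.756 (n = 2 each, exact two-sided permutation p = 1). When the 31960 top-scoring peaks of every list were used, the mean was 8 induced and 10 uninduced peaks, so the direction of the peak count turned. All peak counts here take the upstream element as 1 peak in each induced list and 3 in each uninduced list. Its part in the turn was not tested. Mean covered length in that setting was 15.6 kb induced and 13.4 kb uninduced (exact two-sided permutation p = 0.667), so its direction did not turn. With scores of at least 100, the means were 11.5 induced and 9 uninduced peaks, and the share was lower in both induced lists (2.70 against 4.37 of every 10000, exact two-sided permutation p = 0.333). Depth is unknown for these lists, and a missing peak means only that none passed the authors' threshold.

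**Figure D1:**
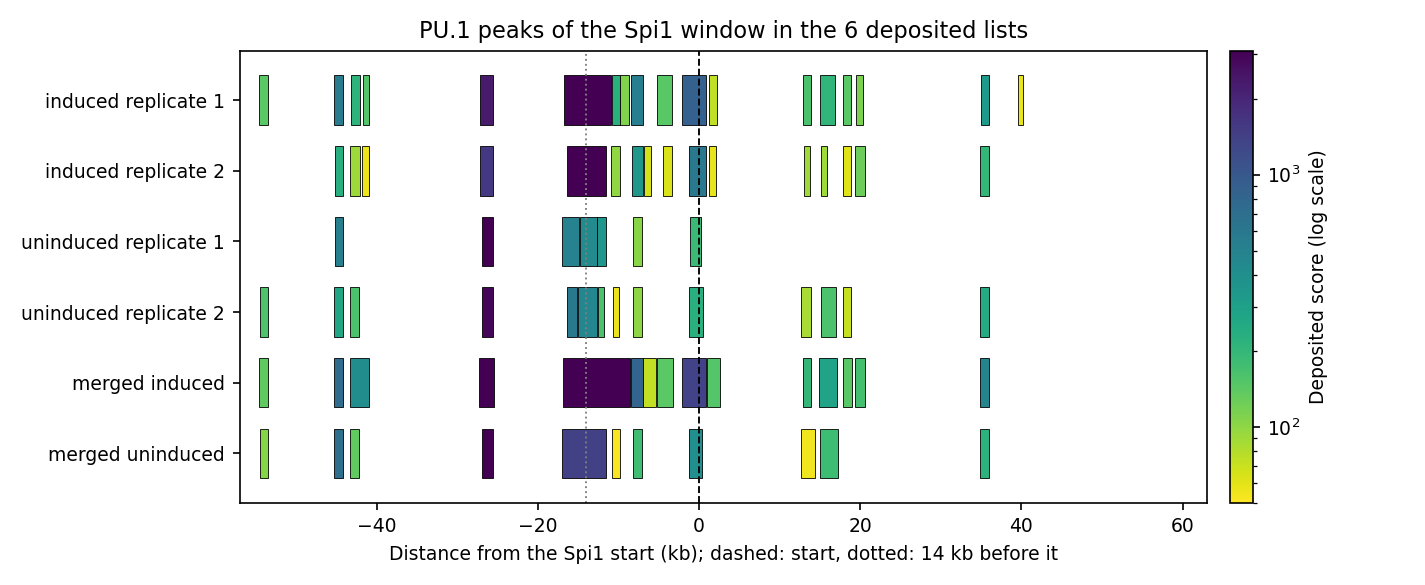
Deposited PU.1 peaks of the Spi1 window, one row for each of the 4 libraries and the 2 merged lists, drawn to scale along the distance from the start in kb and coloured by deposited score on a log scale. The upstream element (dotted line) and the start (dashed line) lie under a peak in every row, and uninduced replicate 1 has no peak to the right of the start's own peak.

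The 19 regions were sorted by the libraries in which a peak was called. A peak was present in all 4 libraries in 5 regions (26.3%, against 23.4% of all regions of the genome). Another 4 regions (21.1%, against 22.2%) had peaks in both induced libraries only and are called gained. No region had peaks in both uninduced libraries only, a class that holds 3.8% of all regions. The other 10 regions (52.6%, against 50.5%) were mixed. Of these, 6 had a peak in every library but uninduced replicate 1 (31.6%, against 14.6% of all regions) and 3 had a peak in 1 induced library alone (15.8%, against 28.9% with a peak in any 1 library alone). The last had a peak in induced replicate 1 and uninduced replicate 2. By library, 18 regions had a peak in induced replicate 1 (94.7%, against 81.4% of all regions), 16 in induced replicate 2 (84.2%, against 67.2%), 5 in uninduced replicate 1 (26.3%, against 37.7%) and 12 in uninduced replicate 2 (63.2%, against 49.9%). Peaks in both induced libraries were found in 15 (78.9%, against 61.9%). Shares of shared and gained regions were thus close to those of the genome. Which uninduced library is asked decides the rest: without uninduced replicate 1, 11 regions counted as shared and 4 as gained, and without uninduced replicate 2, 5 counted as shared and 10 as gained. With lists of equal length no region was gained, and with scores of at least 100 only 1 was.

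The upstream element was under PU.1 peaks in all 4 libraries and held the highest score of the locus in both induced ones. Its region spans 90920049 to 90926012, and the position 14 kb before the start falls inside a peak in each library. The highest score there was 3100 in induced replicate 1 and 3100 in induced replicate 2, against 493.64 and 580.1 in uninduced replicates 1 and 2. The deposited score, 1 value per peak, has a minimum of 50 and no stated scale. The value 3100 recurs in 367 and 95 peaks of the induced lists and 48 and 18 of the uninduced lists, so peaks at that value are tied and cannot be ranked against each other. Because score levels differ between lists, each score was also placed among all peaks of its own list. The upstream element stood at percentiles of 99.7 and 99.9 among induced peaks and of 88.3 and 91.8 among uninduced peaks. The groups did not overlap, with means of 99.8 ± 0.165 and 90.1 ± 2.50 (SD, n = 2 each) and a difference of 9.72 points (exact two-sided permutation p = 0.333). Each uninduced value is that of the highest of 3 peaks called over the region, whereas each induced value is that of a single peak. As 1 peak in the merged lists, the element stood at a percentile of 95.8 uninduced (score 1399.24) and 98.8 induced (3100). The part of the split in the difference was not tested.

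The upstream element was called as a single peak after induction and as a row of 3 peaks before it. The induced peaks were 5815 and 4770 bp wide, and 99.9% of the peaks in each of those lists were narrower. In uninduced replicate 1 the 3 peaks were 1993, 2171 and 1019 bp wide with scores of 493.64, 435.05 and 354.55. In uninduced replicate 2 they were 1336, 2331 and 817 bp wide with scores of 580.1, 468.88 and 164.75. The middle peak of the row covers the position 14 kb before the start in both uninduced libraries, and the first peak, farther from the gene, scored highest. The breaks between the peaks were short, 167 and 1 bp in uninduced replicate 1 and 90 and 93 bp in uninduced replicate 2. Peaks covered 5183 and 4484 bp of the region in the uninduced libraries and 5815 and 4770 bp in the induced ones, so the lengths of the groups overlapped.

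This pattern was counted over the genome only after it had been seen here, so the count is a description and not a test. Of the 19391 regions with a peak in all 4 libraries, 167 (0.861%) had 1 peak in each induced library and at least 2 in each uninduced one, and 4 (0.0206%), the Spi1 element among them, had exactly 1 and 3. Regions this wide are few, and the count was not limited to wide regions. The authors' merged uninduced list has 1 peak of 5424 bp over the element, with a score of 1399.24, and their merged induced list has 1 peak of 8283 bp at 3100. The split was therefore seen in the lists of single uninduced libraries and not in the merged one.

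Between the upstream element and the start, the region centred 7.7 kb before the start ranked higher in both induced lists by the widest margin of the 5 shared regions. It spans 90928541 to 90930015. Its scores were 539.41 and 347.14 in induced replicates 1 and 2 and 104.55 and 100.36 in uninduced replicates 1 and 2. Both uninduced peaks were near the middle of their lists, at percentiles of 49.7 and 44.1, and both induced peaks stood higher, at 80.9 and 76.9. The difference of the means, 78.9 ± 2.80 against 46.9 ± 3.99 (SD, n = 2 each), was 32.0 points (exact two-sided permutation p = 0.333). Of all shared regions of the genome, 10.9% had a difference at least as large. With lists of equal length the difference was 21.6 points, smaller in size than that at 44.7 kb (-29.8 points). With scores of at least 100 it was 65.4 points, but both uninduced scores lie just above that cut. Their mean percentile was therefore 2.28 in that setting, against 46.9 in the full lists. Induced peaks were also wider, 1475 and 1279 bp against 1126 and 1113 bp.

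The region over the start given above spans 90934862 to 90937858. It scored 877.14 and 589.37 in induced replicates 1 and 2 and 189.09 and 225.11 in uninduced replicates 1 and 2. Both induced values lay above both uninduced values, and so did the percentiles of 89.3 and 87.8 against 69.9 and 72.4. The mean percentile was 88.5 ± 1.06 induced and 71.1 ± 1.77 uninduced (SD, n = 2 each), a difference of 17.4 points (exact two-sided permutation p = 0.333). Peak width was 2997 and 2125 bp after induction and 1422 and 1649 bp without it. The induced peaks reached farther on both sides. They ended 0.858 and 0.838 kb after the start, against 0.237 and 0.435 kb in uninduced replicates 1 and 2. They began 2.14 and 1.29 kb before the start, against 1.18 and 1.21 kb, so on the upstream side induced replicate 2 lay close to the uninduced libraries.

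Weaker peaks lay between the upstream element and a point just past the start. Between 17 kb before and 3 kb after the start, 7 of 8 regions (87.5%) had a peak in induced replicate 1 and 7 of 8 in induced replicate 2, against 81.4% and 67.2% of all regions of the genome. In uninduced replicate 1 it was 3 of 8 (37.5%, against 37.7%). In uninduced replicate 2 it was 4 of 8 (50%, against 49.9%). These 8 regions include the 3 shared ones (the upstream element, 7.7 kb and the start), which had a peak in every library. Of the weaker regions, none had a peak in uninduced replicate 1, and only that at 10.3 kb had one in uninduced replicate 2. Just downstream of the upstream element, a region centred 10.3 kb before the start scored 226.67 and 99.34 in the induced libraries and 56.29 in uninduced replicate 2, close to the minimum of its list. Next to it, at 9.24 kb, induced replicate 1 alone had a peak (109.91), and at 6.40 kb induced replicate 2 alone had one (65.65). The gained region at 4.26 kb scored 146.61 and 62.69, and the gained region 1.68 kb after the start scored 74.67 and 57.83. In induced replicate 2 these scores lay at percentiles of 8.91 to 36.2, so several were only slightly above what the list admits. The merged induced list runs the upstream element and its neighbours at 10.3 and 9.24 kb together into the 8283 bp peak.

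**Figure D2:**
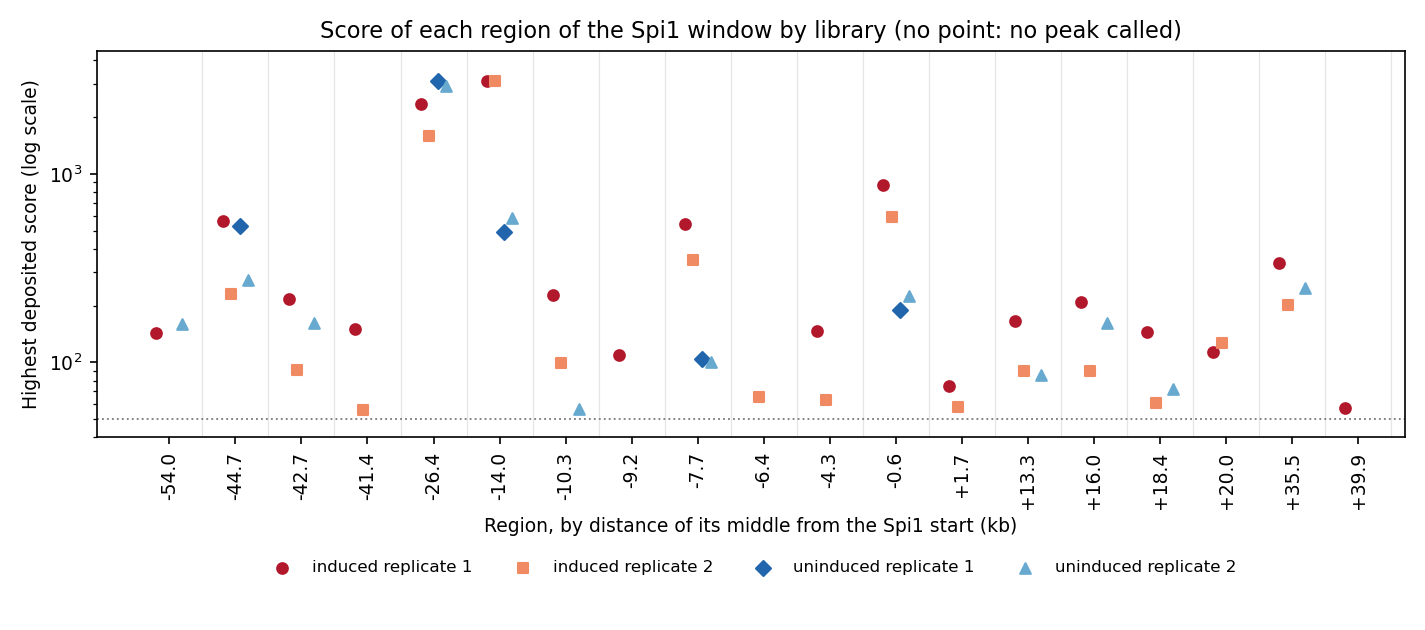
Highest deposited score of each of the 19 regions in each library on a log scale, ordered by distance from the Spi1 start in kb, with no point where no peak was called and a dotted line at the list minimum of 50. At -14.0, -7.7 and -0.6 kb both induced libraries lie above both uninduced ones, and at -26.4 kb both lie below.

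The strongest site of the uninduced locus was not the upstream element but a region farther upstream, centred 26.4 kb before the start. It spans 90909756 to 90911475. Scores were 3100 and 2925.32 in uninduced replicates 1 and 2 and 2353.06 and 1582.44 in induced replicates 1 and 2. This was the only one of the 5 shared regions in which both induced values were lower than both uninduced values. It stayed near the top of every list, at percentiles of 98.6 and 98.3 (induced) and 99.9 and 99.9 (uninduced). The mean difference was -1.44 points (98.5 ± 0.202 against 99.9 ± 0.0510, SD, n = 2 each, exact two-sided permutation p = 0.333). The peak itself was wider after induction, 1684 and 1590 bp against 1390 and 1374 bp. Both merged lists give this region a score of 3100.

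The region centred 44.7 kb before the start, 90891720 to 90892856, was the fifth with a peak in every library. It scored 559.87 and 229 in induced replicates 1 and 2 and 528.36 and 273.16 in uninduced replicates 1 and 2, so the replicates of a condition differed more than the conditions. The mean percentiles of 73.7 ± 11.2 and 83.3 ± 8.20 (SD, n = 2 each) overlapped, with a difference of -9.68 points (exact two-sided permutation p = 0.667). This value depended on the ranking: with lists of equal length it was -29.8 points and with ranks among shared regions -22.6 points, and in both the induced libraries lay below the uninduced ones (exact two-sided permutation p = 0.333).

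The order of these sites by score therefore differed between the conditions at 2 places. The upstream element ranked first and the region at 26.4 kb second in both induced libraries, whereas the region at 26.4 kb ranked first in both uninduced libraries, with the element at rank 3 in replicate 1 and rank 2 in replicate 2. The region over the start held rank 3 in both induced and rank 4 in both uninduced libraries, changing place with the region at 44.7 kb. Of the 10 pairs that the 5 regions form, 2 (20%) had opposite orders in the conditions with both replicates alike, against 12.2% of 49845 pairs of shared regions that lie within 120 kb of each other in the genome. The element's uninduced score is that of 1 of its 3 peaks, and whether the split or read depth alters the order was not tested. In the merged induced list the element and the region at 26.4 kb are tied at 3100, so that list gives them no order. The other change was also seen in the merged lists: the start scored 1384.37 and 44.7 kb 727.76 induced, against 400.57 and 694.17 uninduced.

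Among all 19391 shared regions, the mean percentile was a median of 4.96 points higher in the induced libraries, with an interquartile range from -6.46 to 18.7. Both induced percentiles lay above both uninduced ones in 38.9% of shared regions and below in 22.3%. In the Spi1 window this was so for 3 of 5 (the upstream element, 7.7 kb and the start) and 1 of 5 (26.4 kb). The differences of 32.0 at 7.7 kb lay above the upper quartile of the genome, that of -9.68 at 44.7 kb below the lower quartile, and the other 3 between the quartiles. The percentile of a site close to the top of a list, such as the upstream element, can move little. Ranked among shared regions alone, the element had mean percentiles of 99.3 (induced) and 81.8 (uninduced), 17.5 points apart. The length under peaks was greater in both induced libraries in 4 of the 5 regions, all but the upstream element, against 49.9% of shared regions.

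**Figure D3:**
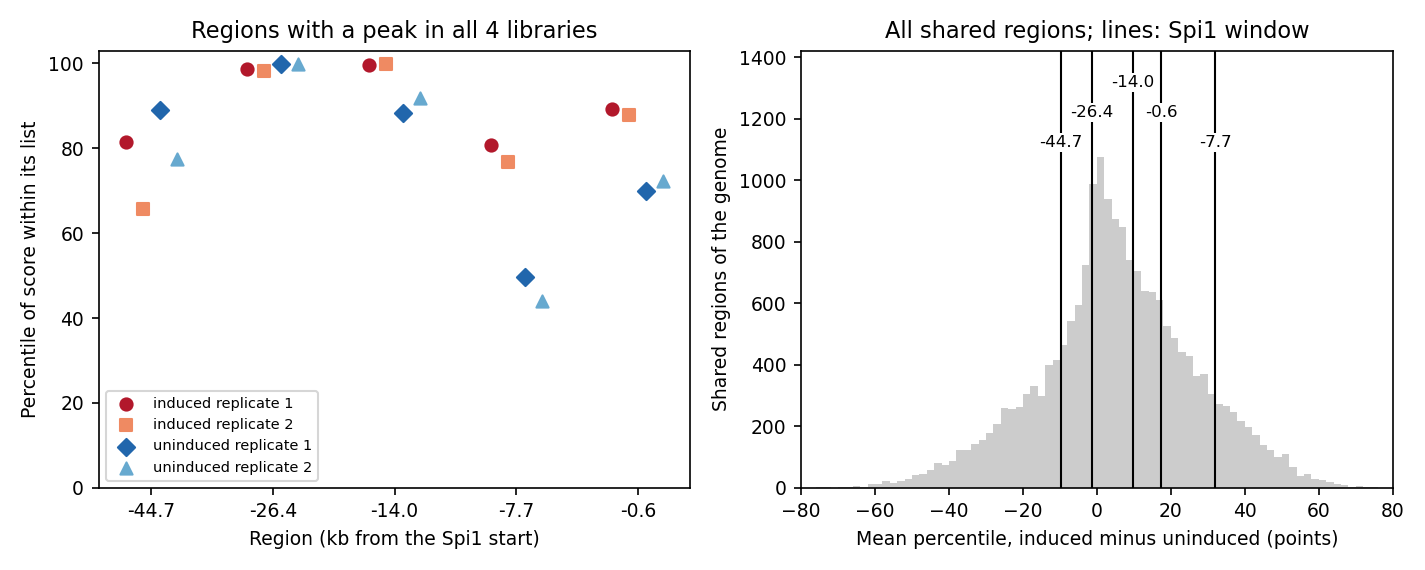
Left, percentile of the highest score within its own list for the 5 regions of the Spi1 window with a peak in all 4 libraries; each point is 1 library. Right, induced minus uninduced mean percentile for all 19391 shared regions of the genome (bars), with the 5 regions as lines labelled by kb from the start; the regions at -14.0, -7.7 and -0.6 kb lie right of 0 and those at -26.4 and -44.7 kb left of it.

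Downstream of the start, no library had a peak from 2.17 to 12.7 kb, a gap of 10.5 kb. Beyond it lay a group of 4 regions between 13.3 and 20.0 kb after the start. The first, centred 13.3 kb after the start, scored 164.76 and 90.01 in induced replicates 1 and 2 and 85.26 in uninduced replicate 2. At 16.0 kb the scores were 208.35 and 89.92 in the induced libraries and 161.85 in uninduced replicate 2. At 18.4 kb they were 144.25 and 61.04 against 71.89. The last, at 20.0 kb, was gained, with 113.15 and 126.18. Uninduced replicate 1 had no peak in any of the 4, and in the first 3 the score of uninduced replicate 2 was above or close to that of induced replicate 2. Copies of Spi1 transcribed sequence in an inducible construct would add reads over the gene's exons. Exons of mm9 were not placed here, so the part of such reads in these 4 regions was not tested. The same holds for the region over the start and the gained region 1.68 kb after it.

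The outer parts of the window held 5 more regions with no peak in uninduced replicate 1. The region 35.5 kb after the start scored 338.04 and 200.2 in the induced libraries and 246.75 in uninduced replicate 2, within the induced range. The one 39.9 kb after the start had a peak of 57.29 in induced replicate 1 and in no other list, the merged ones included. No list had a peak over the last 22.7 kb of the window. On the far upstream side, the region at 42.7 kb scored 215.53 and 91 in the induced libraries and 161.58 in uninduced replicate 2. Beside it, the gained region at 41.4 kb scored 150.26 and 56.05. The outermost, at 54.0 kb, had peaks in induced replicate 1 (143.81) and uninduced replicate 2 (158.89) and in both merged lists. Across the 6 regions that only uninduced replicate 1 lacked, scores ran from 61.04 to 200.2 in induced replicate 2, with a median of 90.5, below the genome's median of 192.4 for regions of that kind. In uninduced replicate 2 their median was 123 against 94.7 in the genome.

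In induced replicate 2, 3 of the 4 gained regions were weak beside other gained regions. Their median score there was 60.3, against 94.7 over the 18414 gained regions of the genome, whose interquartile range ran from 68.4 to 147. For induced replicate 1 these medians stood at 130 and 138. In induced replicate 2, 3 of the 4 regions therefore lay near the threshold and below the lower quartile of gained regions. The other, 20.0 kb after the start, scored 126.18 there, above the median of gained regions.

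The window held more PU.1 peaks than most stretches of the genome in every library. It was set beside 16599 windows of 120 kb laid end to end, leaving out those without any peak. At least as many peaks lay in 1.42% of windows in induced replicate 1, where the median window held 3, and in 1.25% in induced replicate 2, where it held 2. The shares were 4.51% in uninduced replicate 1, with a median of 1, and 0.639% in uninduced replicate 2, with a median of 2. Part of this rests on the split upstream element: with the peaks of 1 region counted once, the window held 5 regions with a peak in uninduced replicate 1, and 10.7% of windows held at least as many. In uninduced replicate 2 it held 12 and the share was 1.11%, and in induced replicates 1 and 2 the shares were 1.29% and 0.934%. The window was placed around the gene and not on the grid, and the shares carry no test.

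**Figure D4:**
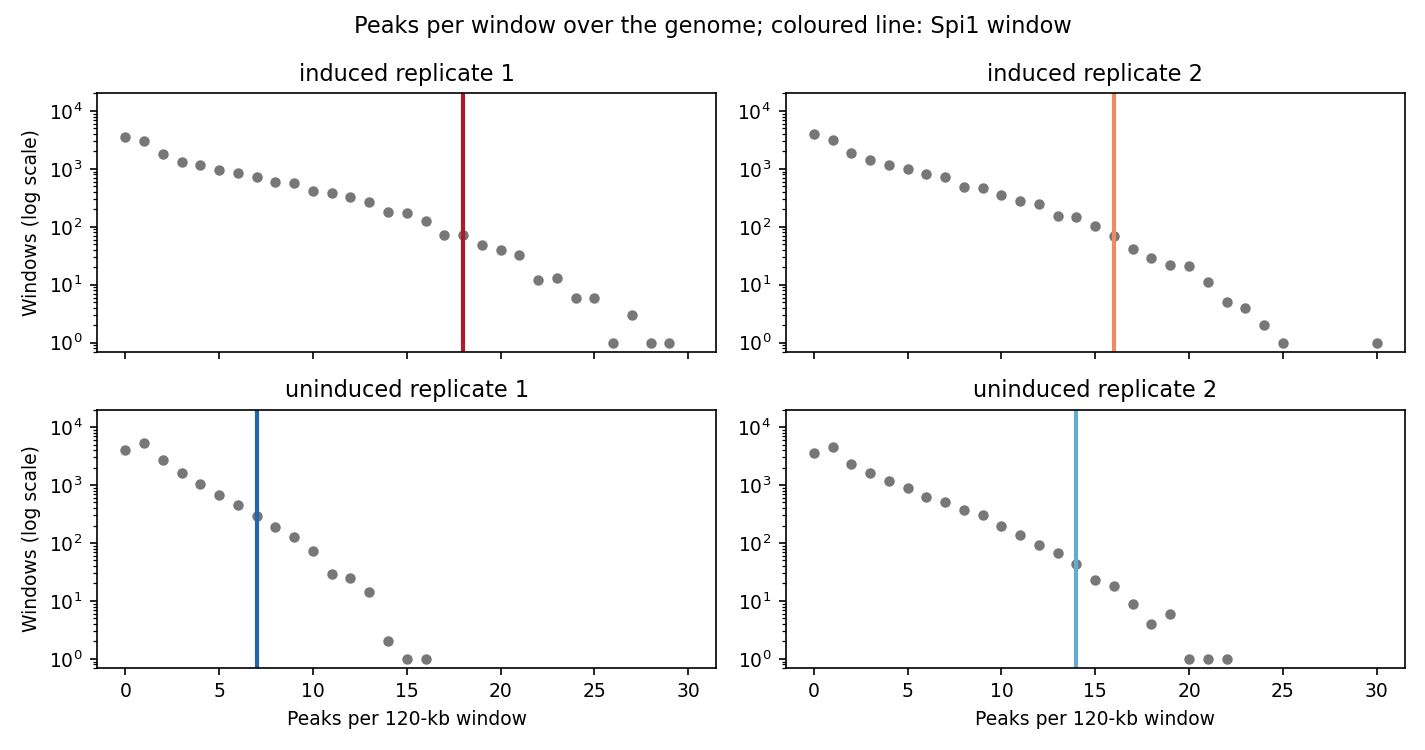
Number of 120-kb windows of the genome (log scale) by their number of PU.1 peaks, one panel per library, with the Spi1 window as a coloured line. The Spi1 window, with 18, 16, 7 and 14 peaks, lies in the right tail of each panel, least far out in uninduced replicate 1.

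Regions with a profile like that of the upstream element were sought among the 19386 other shared regions, by the largest difference in percentile over the 4 libraries. The nearest were chromosome 2, 118552240 to 118556859, with a largest difference of 1.14 points, chromosome 12, 74583110 to 74584843 (1.21 points), and chromosome 13, 37710852 to 37713050 (1.30 points). The first scored 3100 and 2098.17 after induction and 456.06 and 616.28 without it. Likeness over 4 libraries is a description only, and no gene was assigned to these positions.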

How the data were processed

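PU.1 ChIP-seq peak lists of 4 libraries and 2 merged lists were used. Reads had been handled with Trim Galore, Bowtie and MACS 1.4.1 in build mm9, per the submitters' processing notes. Each deposited list has 5 columns with no header, the last a score per peak. Not given in the sources used here are its scale, any control input and the way of merging replicates. The 2 input libraries were not analysed here. Read depth is unknown, so no counting error could be given.

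Samples were grouped by title. Positions were converted to count from 1. Peaks of the 4 libraries sharing at least 1 bp were merged into regions over the whole genome. A region's score in a library is the highest of its peaks there, and its percentile is the rank of that score among all peaks of the list, ties at the mean rank. Group comparisons used exact two-sided permutation of the libraries. The window, regions and comparisons were chosen with earlier results of these data known, and the counts of split peaks and of pair orders were added after the values were seen. All regions of the window are described, and outside it the 3 regions most like the upstream element are named. Alternatives were lists of equal length, a minimum score of 100, an overlap of 50%, a window of 20 kb to either side of the start, the merged lists, other score ranks, leaving out each library and a replicate block. The fixed search for motifs in the Spi1 promoter, the comparison of PU.1 proteins and the placing of pathway genes were not run, as they need sequences or an mm9 annotation that were not used here. Functions were tested on simulated lists. Computation used pandas 2.3.3, SciPy 1.17.1 and NumPy 2.4.6 in Python 3.11.15, with figures from matplotlib 3.10.9.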

Additional observations from a re-analysis of the deposited data

How the results depend on the processing

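Of 102 recomputed values, 90 kept their direction or, for counts of regions and shares of windows, stayed within 1.5 times the reported value. Some of these 90 could not differ from the reported values. They are the differences with the replicate block and the peak number with an overlap of 50%, as every peak lies wholly inside the window. The score of the widest peak also changed nothing in regions with 1 peak per library. No exact p fell under 0.05 in any setting. The score percentile differences of the 5 shared regions kept their direction under every alternative computed for them, but not their size. With scores of at least 100 they were 18.1 points for the upstream element, 65.4 at 7.7 kb and 35.6 at the start. At 7.7 kb the uninduced scores lie just above that cut, which puts them near the bottom of the shortened lists. With lists of equal length the differences of these 3 regions were 10.9, 21.6 and 11.2 points. At 44.7 kb the value was -29.8 in the latter setting and -22.6 by ranks among shared regions. Induced minus uninduced peak number was -2 for lists of equal length and 2.5 for scores of at least 100, where the share per 10000 peaks differed by -1.66. Each uninduced list enters these counts with 3 peaks at the upstream element. Covered length kept its direction, with differences of 2.23 kb for lists of equal length and 7.18 kb for scores of at least 100. Counting the peaks of 1 region once, an alternative chosen after seeing the data, gave a share of windows at least as dense of 10.7% in uninduced replicate 1 and 1.11% in uninduced replicate 2. With scores of at least 100 there was 1 gained region, and with lists of equal length there were 0. With an overlap of 50% of both intervals 3 regions counted as lost, which are the 3 uninduced peaks of the upstream element: none shares that much with the single wide induced peak.

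Leaving out each library in turn, the difference in peak number ranged from 3 to 10 and that in covered length from 6.97 to 14.5 kb. In these settings the share per 10000 peaks differed by -0.542 to 0.527, turning to 0.0657 without induced replicate 1 and to 0.527 without uninduced replicate 2. Gained regions ranged from 4 to 10, shared from 5 to 11 and mixed from 4 to 7. The percentile difference ranged from 7.95 to 11.5 points for the upstream element, 29.2 to 34.8 at 7.7 kb, 16.1 to 18.6 at the start, -1.58 to -1.30 at 26.4 kb and -17.6 to -1.75 at 44.7 kb.

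With the replicate block the differences are the same by construction (6.5 peaks and 10.7 kb), and the lowest exact p that 2 pairs allow is 0.5. Replicate numbers share only a number here: deviations of same-numbered libraries over 19391 shared regions correlated at -0.0693 for log2 scores and 0.0575 for percentiles.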
